A study of Homo sapiens with 24 samples.

Results

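MV411 is an established human acute myeloid leukaemia line that carries a KMT2A (MLL) fusion and an internal tandem duplication of FLT3, the gene of a receptor tyrosine kinase that drives its growth. The comparison described here set MV411 cells treated with 3 nM AC220 (quizartinib, an inhibitor of the FLT3 kinase) for 24 h against MV411 cells treated with DMSO, the solvent control, whose exposure time the labels do not give. Each group held 3 libraries, called biological triplicates, so 6 of the 24 libraries of the series are compared, and the exact separation of the cultures was not described. Another MV411 group received 2.5 µM MI-503, an inhibitor of the contact between menin and MLL proteins, for 3 days. It is used for a direct contrast with AC220, in which dose and time differ between the drugs. The MV411 libraries that received both drugs counted in the filter on low values, the principal components and the fit, where they add to the estimate of the spread, and are not compared here. All MV411 groups carry both the fusion and the FLT3 duplication, and the comparison rests on 1 cell line. Of 25680 genes in the table, 14421 reached 10 normalised reads in 3 or more of the 12 MV411 libraries and were tested, and 11259 were not. Among those tested, 13047 reached that minimum in all 6 libraries compared here, 131 in all 3 AC220 libraries and in no DMSO library, and 227 in all 3 DMSO libraries and in no AC220 library.

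FLT3 passes its signal along 3 main routes: RAS and the kinases MEK and ERK, PI3K and the kinase AKT, and the transcription factor STAT5. ERK switches on its own phosphatases and short-lived transcription factors, STAT5 switches on the PIM kinases and cytokine feedback genes, and AKT keeps FOXO transcription factors out of the nucleus. In cells with the internal tandem duplication the receptor signals without its ligand. Levels below are normalised read counts (reads divided by 1 factor per library, as deposited), and fold changes are log2 fold changes of AC220 over DMSO on the log2(value + 1) scale, given ± standard error with n = 3 libraries per group. A gene was called higher or lower at an adjusted p under 0.05, from limma with Benjamini-Hochberg adjustment over all genes tested.

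The 3 AC220 libraries held between 25280544 and 26596469 reads in genes and the 3 DMSO libraries between 25166887 and 26554728. The median standard deviation among replicates was 0.0766 log2 units with AC220 and 0.0758 with DMSO. The 4 MV411 groups stood apart on the first 2 principal components, which held 62.1% and 21.1% of the variance. Of the genes tested, 10806 (74.9%) passed, 5432 higher (37.7%) and 5374 lower (37.3%), and for 11214 (77.8%) the AC220 values all lay to one side of the DMSO values. Member counts and groups without overlap, given below for single lists and genes, are to be read beside these shares. Large changes were more often decreases: 1222 genes (8.47%) were higher by at least 2-fold and 1564 (10.8%) lower, at 4-fold the counts were 149 and 566, at 8-fold 19 and 242, and at 16-fold 3 and 60. The median over all genes tested was 0.01. The deposited factors equal median-of-ratios factors computed from the genes, although spike-in RNA was added to a fixed number of cells. These values therefore hold no measure of the RNA content of a cell. In bulk RNA, fewer cells of a type and less RNA per cell cannot be told apart.

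Marker genes of the line itself were present: all 13 markers of a monocytic leukaemia line were tested, and their summed level was 151835 to 156156 with AC220, against 94922 to 97955 with DMSO. LYZ, FLT3 and CD4 made up most of this sum, and of the 13 markers 8 were called higher and 4 lower. Those lower were ITGB2, FCER1G, ITGAM and CD14. The defining T cell and B cell genes CD8B, TRAT1, MS4A1 and EBF1, the globin genes HBA1 and HBB, and the epithelial and fibroblast genes EPCAM, CDH1, COL1A2 and COL3A1 had no read in either group. Summed levels were 989 to 1061 with AC220, against 887 to 918 with DMSO, for 11 T and NK cell markers, 178 to 239 against 183 to 199 for 8 B cell markers, 892 to 1040 against 862 to 960 for 12 erythroid and megakaryocyte markers, and 191 to 212 against 171 to 200 for 10 epithelial and fibroblast markers. The T and NK sum was almost wholly NKG7 and the erythroid and megakaryocyte sum mostly ITGA2B. The part of these marker levels in the results below was not tested.

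**Figure D1:**
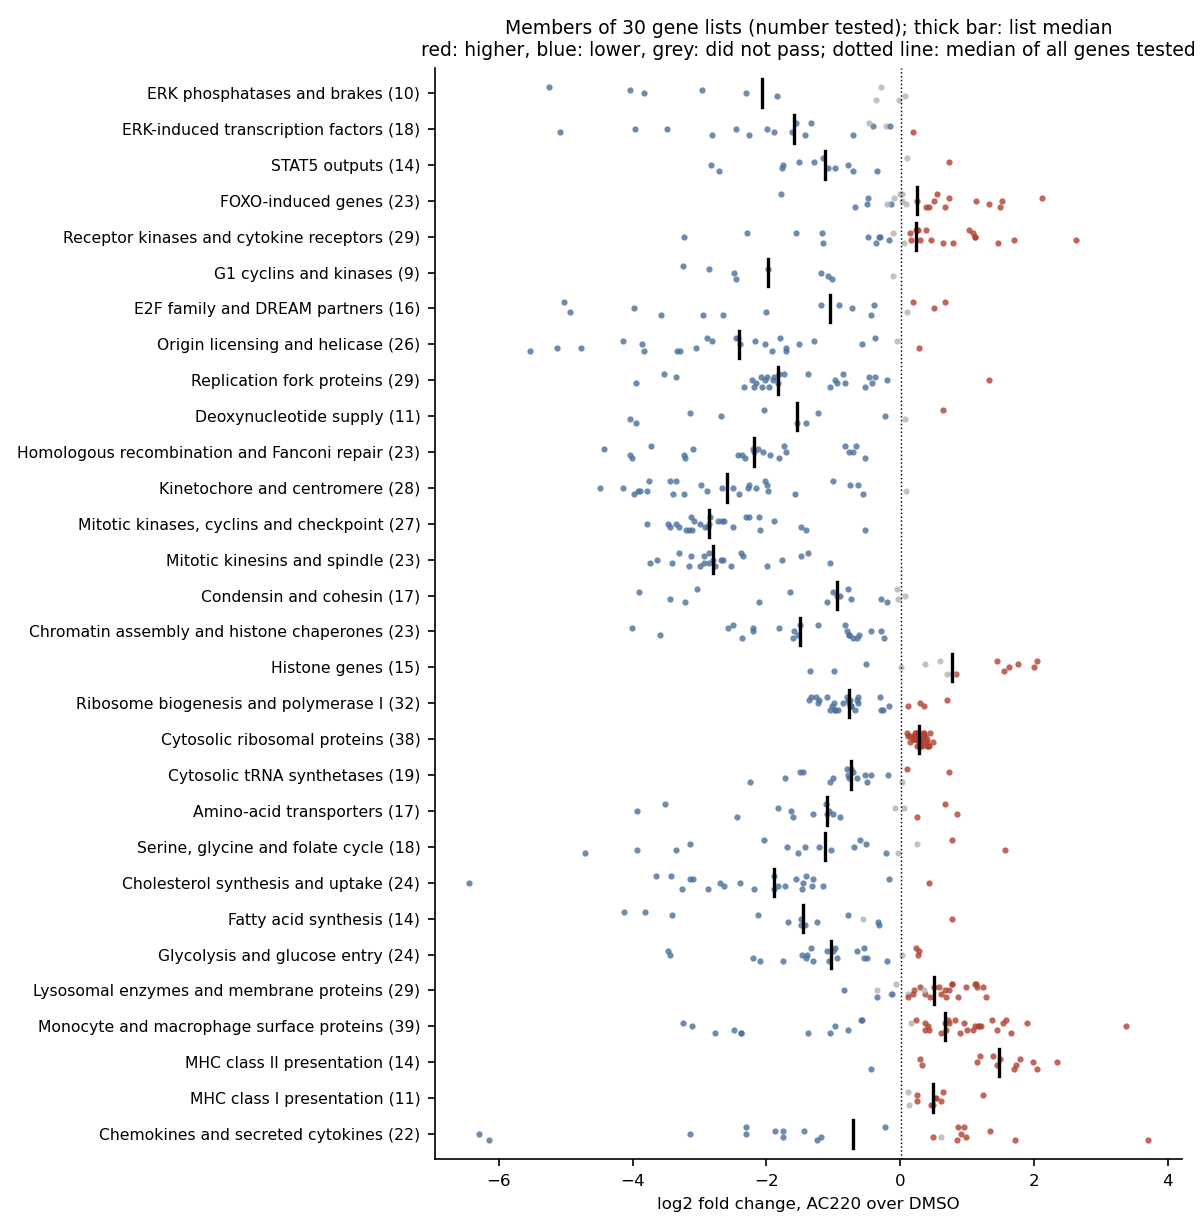
Log2 fold changes of AC220 over DMSO (horizontal axis) for the tested members of 30 gene lists, 1 point per gene (red: higher, blue: lower, grey: did not pass), with a thick bar at each list median and a dotted line at the median of all genes tested, 0.01. Lists of DNA replication and mitosis lie to the left with medians as low as -2.86, the MHC class II list lies to the right with a median of 1.47, and the ribosomal protein genes form a tight cloud at 0.28.

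The promoter sequences that the cell-cycle and metabolic results below refer to are shown first. E2F factors and the DREAM complex, which represses cell-cycle genes in resting cells, act through E2F sites and the cell-cycle homology region (CHR), often beside CCAAT boxes bound by NF-Y; ATF4 acts through a composite C/EBP-ATF element, and FOXO factors through a forkhead site. The windows end 1 base before the RefSeq gene start, read 5′ to 3′ on the gene's strand, from RefSeq on GRCh38.p14, and capitals mark matches to the motifs searched. MCM6, an origin licensing helicase gene (chr2:135876444-135876603, minus strand), and E2F1 (chr20:33686386-33686505, minus strand) carry E2F sites (TTTGGCGC) and CCAAT boxes.
MCM6: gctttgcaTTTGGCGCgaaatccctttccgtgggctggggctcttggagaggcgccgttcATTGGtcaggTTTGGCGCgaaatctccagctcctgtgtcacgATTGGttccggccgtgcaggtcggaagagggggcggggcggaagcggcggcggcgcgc
E2F1: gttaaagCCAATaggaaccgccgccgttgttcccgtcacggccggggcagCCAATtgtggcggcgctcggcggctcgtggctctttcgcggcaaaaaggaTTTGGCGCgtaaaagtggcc
The mitotic cyclin gene CCNB2 (chr15:59105021-59105145, plus strand), the mitotic kinase gene PLK1 (chr16:23678799-23678888, plus strand) and the kinesin gene KIF23 (chr15:69414269-69414348, plus strand) carry a CHR (TTTGAA) downstream of CCAAT boxes.
CCNB2: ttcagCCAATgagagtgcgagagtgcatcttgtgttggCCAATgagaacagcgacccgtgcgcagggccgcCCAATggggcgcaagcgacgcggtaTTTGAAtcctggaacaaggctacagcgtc
PLK1: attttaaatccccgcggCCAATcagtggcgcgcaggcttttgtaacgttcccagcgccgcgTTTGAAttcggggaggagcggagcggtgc
KIF23: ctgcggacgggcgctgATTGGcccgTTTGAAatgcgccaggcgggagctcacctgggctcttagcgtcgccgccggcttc
The asparagine synthetase gene ASNS (chr7:97872409-97872498, minus strand) carries an ATF4 element (TGATGNAA), and TXNIP (chr1:145996580-145996729, minus strand) a FOXO site, TGTTTAC on the other strand, between a pair of CCAAT boxes.
ASNS: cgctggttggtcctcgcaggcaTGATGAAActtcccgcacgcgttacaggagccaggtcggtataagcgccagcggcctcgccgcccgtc
TXNIP: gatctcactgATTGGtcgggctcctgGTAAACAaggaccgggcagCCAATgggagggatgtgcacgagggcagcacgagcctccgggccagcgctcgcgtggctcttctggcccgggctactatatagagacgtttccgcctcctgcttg
The first base of each CHR lies 29 bases before the start in CCNB2 and PLK1 and 55 bases before it in KIF23.

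Genes that ERK switches on had lower medians than the other signalling lists. DUSP6, a cytoplasmic ERK phosphatase gene, had 34.5, 31.8 and 28.2 normalised reads in the AC220 libraries, against 1149.6, 1335 and 1235 in the DMSO libraries. ETV4, an ETS factor gene under ERK, had 3.84, 6.96 and 6.57 with AC220, against 230.3, 218 and 226 with DMSO. SPRED2, an inhibitor of RAS to RAF signalling, had 147, 140.3 and 129 with AC220, against 1073, 1054 and 1134 with DMSO. Every AC220 library lay below every DMSO library for these 3 genes. The log2 fold changes were -5.26 ± 0.137, adjusted p = 3.52e-20, -5.09 ± 0.259, adjusted p = 1.33e-14 and -2.96 ± 0.0827, adjusted p = 1.16e-19.

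Of the ERK phosphatases and brakes, 10 of 14 listed genes were tested, and 6 of the 10 members tested fell, 4 did not pass (median log2 fold change -2.07), beside 37.3% lower among all genes. SPRY4 and SPRED1, further brakes, were below the minimum. DUSP5, a nuclear ERK phosphatase gene, fell by 16.4-fold and DUSP2, another nuclear member, by 3.57-fold, whereas DUSP7, which also acts on ERK, had 2551 ± 58.1 with AC220, against 2595 ± 21.7 with DMSO (SD) and did not pass (-0.03 ± 0.046, adjusted p = 0.632). Of the ERK-induced transcription factor genes, 15 of the 18 members tested fell, 1 rose, 2 did not pass (median log2 fold change -1.59). ETV5 had 122, 100.5 and 120.1 with AC220, against 1716, 1879.9 and 1776 with DMSO, and the AP-1 genes FOSL1 and JUN changed by -2.27 ± 0.136 and -1.99 ± 0.0949. EGR1, an immediate early gene, had 36.5, 29.8 and 48.8 with AC220, against 296, 239.9 and 282 with DMSO. IER2, another immediate early gene, moved least in the list (-0.15 ± 0.0658, adjusted p = 0.0445), and its call was lost in 9 of the alternatives tried, among them those that left out the second AC220, the third AC220 or any 1 of the DMSO libraries (largest adjusted p 0.259, without the second AC220 library, limma).

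STAT5 outputs fell by smaller factors. 12 of the 14 members tested fell, 1 rose, 1 did not pass (median log2 fold change -1.12). PIM1, a serine/threonine kinase gene, had 542, 541 and 562 normalised reads in the AC220 libraries, against 3348, 3569 and 3901 in the DMSO libraries, a change of -2.71 ± 0.0559, adjusted p = 4.92e-22. PIM2, its relative, had 739.9, 696 and 738 with AC220, against 1447, 1370.1 and 1458 with DMSO (-0.97 ± 0.057). CISH, a STAT5 feedback gene, had 718, 766 and 769.6 with AC220, against 1737, 1796 and 1965 with DMSO, while SOCS2, listed among the same feedback genes, had 892, 772 and 828 with AC220, against 1052, 1049.9 and 1046 with DMSO and changed by -0.34 ± 0.0745. SOCS3 had 50.9, 48.7 and 109.8 with AC220, against 226, 238 and 206 with DMSO, with the third AC220 library above the other two but still below every DMSO library. OSM, a cytokine gene, changed by -1.75 ± 0.137, and BCL2L1, which codes for the survival protein BCL-XL, did not pass (0.10 ± 0.0668, adjusted p = 0.195).

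The list of FOXO-induced genes split. 12 of the 23 members tested rose, 5 fell, 6 did not pass (median log2 fold change 0.26), beside 37.7% higher among all genes. PIK3IP1, which codes for an inhibitor of PI3K, had 746, 799.8 and 769 normalised reads in the AC220 libraries, against 167, 191 and 174 in the DMSO libraries (2.12 ± 0.0726, adjusted p = 6.25e-18). TXNIP, a thioredoxin-binding protein gene that curbs glucose uptake and whose promoter is shown above, had 46217, 46000.5 and 43955 with AC220, against 19804, 20749.6 and 21691 with DMSO (1.13 ± 0.0376, adjusted p = 3.52e-18). SESN3, a sestrin gene that dampens mTOR, changed by 1.53 ± 0.0691, and BCL6, a repressor gene, by 1.32 ± 0.0989. The 5 that fell, named after their values were seen, were KLF2 (-1.78 ± 0.494, with few reads in either group), KLF6 (-0.67 ± 0.0826), GADD45A (-0.49 ± 0.0785), CITED2 (-0.49 ± 0.054) and SESN1 (-0.14 ± 0.0583). BCL2L11, which codes for the death protein BIM, had 998 ± 12.7 with AC220, against 1002 ± 37.5 with DMSO (SD) and did not pass (-0.01 ± 0.0525, adjusted p = 0.934). Of the list's promoters, 5 of 20 promoters (25%) held a FOXO site, beside 254 of 10910 promoters (2.3%) over all genes tested.

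Of 35 RAS and PI3K pathway components, 15 of the 35 members tested rose, 12 fell, 8 did not pass (median log2 fold change 0.04). These counts lie near the shares over all genes tested, 37.7% higher and 37.3% lower. STAT5A changed by 1.28 ± 0.0488 and GAB2, an adaptor between receptors and PI3K, by 1.04 ± 0.0428. RASA2, a RAS inactivator, changed by -0.94 ± 0.0982, HRAS by -0.93 ± 0.0828, and AKT1 had 5365 ± 90.3 with AC220, against 5369 ± 277 with DMSO (SD) and did not pass. FLT3 itself (chr13:28003274-28100576 on GRCh38.p14 in RefSeq) had 28812, 29640.1 and 29909 normalised reads in the AC220 libraries, against 16486, 16722 and 17851 in the DMSO libraries, and all AC220 libraries lay above all DMSO libraries (0.79 ± 0.0401, adjusted p = 1.17e-14).

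Receptors, FLT3 included, went both ways: 17 of the 29 members tested rose, 10 fell, 2 did not pass (median log2 fold change 0.23). KIT, the stem cell factor receptor gene, had 649.7, 674 and 611 with AC220, against 107, 113 and 91.8 with DMSO. CSF1R, the receptor gene for macrophage colony-stimulating factor, had 7309, 7435 and 7229 with AC220, against 3163, 3357 and 3594 with DMSO. MERTK, a receptor kinase gene of macrophages that take up dead cells, changed by 1.70 ± 0.112. IL7R, the interleukin 7 receptor gene, fell to 28.8, 38.8 and 48.8 with AC220, against 365, 360.3 and 365 with DMSO. TGFBR1, a TGF-beta receptor gene, fell to 2105, 1903 and 2099 with AC220, against 10631, 9228 and 10065 with DMSO. The death receptor gene FAS changed by -1.56 ± 0.177, and TNFRSF1A did not pass (0.06 ± 0.0451, adjusted p = 0.266).

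**Figure D2:**
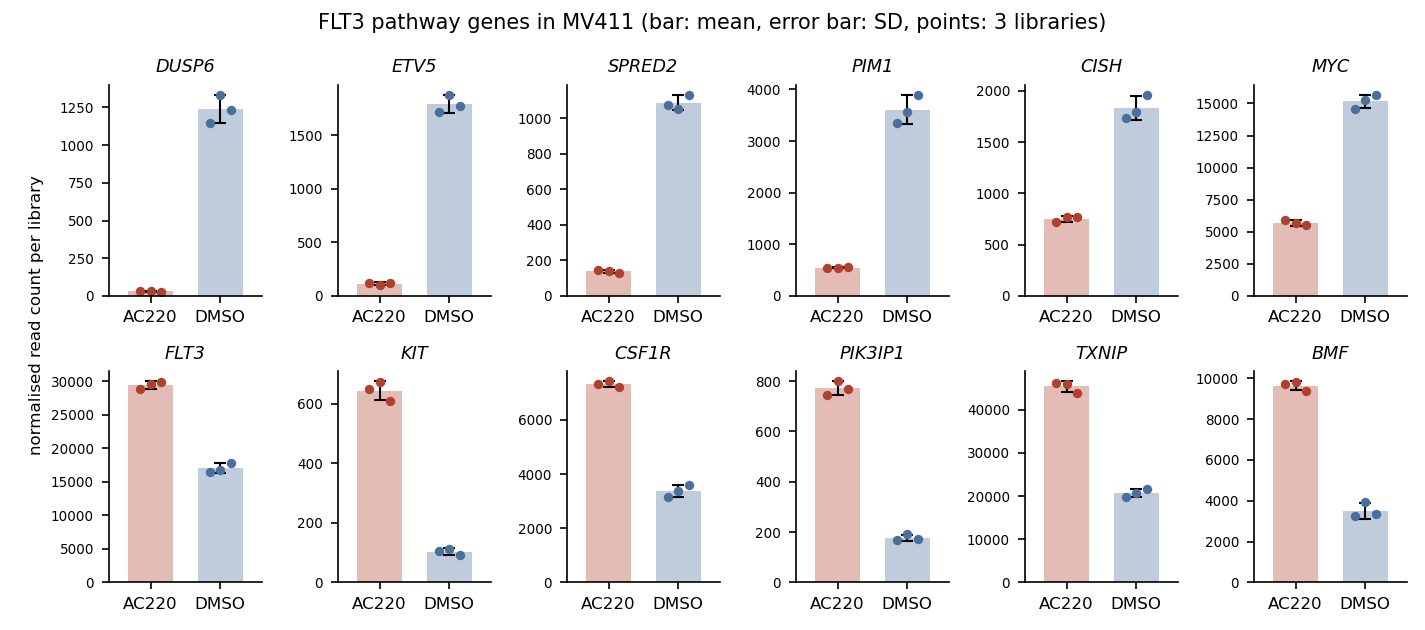
Normalised read counts (vertical axes, each from 0) of 12 genes of the FLT3 pathway in 3 AC220 libraries (left, red) and 3 DMSO libraries (right, blue); bars are means, error bars SD, points single libraries. The ERK and STAT5 outputs and MYC in the upper row are lower with AC220 without overlap, and FLT3, KIT, CSF1R, PIK3IP1, TXNIP and BMF in the lower row are higher without overlap. Of all genes tested, 77.8% had no overlap between the groups.

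Genes that carry cells from G1 into S phase fell together. Of the G1 cyclins and kinases, 8 of the 9 members tested fell, 1 did not pass (median log2 fold change -1.97). CCNE2, a cyclin E gene, had 106, 99.5 and 113 normalised reads in the AC220 libraries, against 1082, 972 and 992 in the DMSO libraries. CDC25A, which activates cyclin-dependent kinases, had 192, 219 and 180.2 with AC220, against 1446, 1357 and 1491 with DMSO. CDK2 had 201, 180.1 and 195 with AC220, against 1098, 1021 and 1119 with DMSO. The groups lay far apart in each, at -3.25 ± 0.105, adjusted p = 2.16e-18, -2.86 ± 0.0815, adjusted p = 1.75e-19 and -2.49 ± 0.0675, adjusted p = 7.46e-20. The D cyclin genes CCND2 and CCND3 changed by -1.09 ± 0.0601 and -1.18 ± 0.0521, and CDK6 did not pass (-0.10 ± 0.0564, adjusted p = 0.101).

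The cell-cycle inhibitors had no common direction: 3 of the 10 members tested fell, 3 rose, 4 did not pass (median log2 fold change -0.02). CDKN1C, which codes for p57, had 242, 209 and 201 with AC220, against 58.0, 45.2 and 54.7 with DMSO (2.03 ± 0.136), and RBL2, the pocket protein gene of the DREAM complex, had 6144, 6420.4 and 6408 with AC220, against 3891, 4134 and 3959.7 with DMSO (0.66 ± 0.0412). RBL1, its relative, changed by -1.62 ± 0.0609 and CDKN1A, which codes for p21, by -1.09 ± 0.0504. CDKN1B, which codes for p27, had 2478 ± 125 with AC220, against 2658 ± 164 with DMSO (SD) and did not pass (-0.10 ± 0.0561, adjusted p = 0.109), but it passed without the third DMSO library (limma, adjusted p = 0.032), and RB1 did not pass either.

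Among E2F factors and DREAM partners, 12 of the 16 members tested fell, 3 rose, 1 did not pass (median log2 fold change -1.05). MYBL2, the B-MYB gene that replaces the repressive pocket proteins on mitotic promoters, had 122, 108 and 126 normalised reads in the AC220 libraries, against 4046, 3715 and 3916 in the DMSO libraries, a 32.6-fold decrease (-5.03 ± 0.0678, adjusted p = 1.06e-24). E2F1, an activator, had 109, 85.6 and 113 with AC220, against 1259, 1189 and 1239 with DMSO. E2F2 had 14.4, 9.95 and 20.6 with AC220, against 466, 462 and 479 with DMSO, and the mitotic activator FOXM1 had 316, 308 and 318 with AC220, against 2419, 2359.7 and 2484 with DMSO. LIN37, a constant subunit of DREAM, had 358 ± 19.5 with AC220, against 332 ± 13.7 with DMSO (SD) and did not pass.

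DNA replication genes showed some of the largest decreases in the table. Of the origin licensing and helicase genes, 24 of the 26 members tested fell, 1 rose, 1 did not pass (median log2 fold change -2.41). MCM10, which starts the helicase, had 43.2, 26.9 and 40.4 normalised reads in the AC220 libraries, against 1756, 1623 and 1745 in the DMSO libraries. CDC45, a part of that helicase, had 37.4, 30.8 and 31.9 with AC220, against 1228, 1174 and 1210.5 with DMSO, and the loader gene CDC6 had 77.7, 79.6 and 107 with AC220, against 2418, 2304 and 2500.1 with DMSO. They fell by 46.1-fold, 35.2-fold and 27.3-fold, and the groups did not overlap. MCM6, whose promoter is shown above, changed by -2.82 ± 0.0507. ORC4, an origin recognition gene that cells keep through the cycle, had 612 ± 44.8 with AC220, against 629 ± 11.2 with DMSO (SD) and did not pass. Of the replication fork proteins, 28 of the 29 members tested fell, 1 rose (median log2 fold change -1.83), from CLSPN, a checkpoint mediator (-3.95 ± 0.0967), and FEN1, the flap nuclease gene (-3.35 ± 0.0593), to RPA2, a single-strand binding protein gene (-0.20 ± 0.0404). Of the genes that supply deoxynucleotides, 9 of the 11 members tested fell, 1 rose, 1 did not pass (median log2 fold change -1.55). The ribonucleotide reductase gene RRM2 had 498, 369 and 454 with AC220, against 7252, 6841 and 7405 with DMSO. TK1, the thymidine kinase gene of S phase, had 139, 102 and 131 with AC220, against 1931, 1877 and 1946 with DMSO, while DCK, a salvage kinase gene that is not tied to S phase, did not pass (0.07 ± 0.0621, adjusted p = 0.348).

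Repair genes divided by pathway. Of the genes of homologous recombination and Fanconi repair, which draw on the sister chromatid, 23 of the 23 members tested fell (median log2 fold change -2.18). In non-homologous end joining, which needs no template, 4 of the 7 members tested fell, 2 rose, 1 did not pass (median log2 fold change -0.30). PRKDC, the DNA-dependent kinase gene, changed by -1.24 ± 0.044, whereas DCLRE1C, the Artemis nuclease gene, and NHEJ1, a ligation factor gene, were higher (0.70 ± 0.0489 and 0.68 ± 0.0723), and LIG4 did not pass (0.03 ± 0.103, adjusted p = 0.817).

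Genes of mitosis fell almost without exception. Of the kinetochore and centromere genes, 27 of the 28 members tested fell, 1 did not pass (median log2 fold change -2.58), of the mitotic kinases, cyclins and checkpoint genes, 27 of the 27 members tested fell (median log2 fold change -2.86), and of the mitotic kinesins and spindle genes, 23 of the 23 members tested fell (median log2 fold change -2.80). UBE2C, the ubiquitin-conjugating enzyme gene of mitotic exit, had 176, 146 and 210.2 normalised reads in the AC220 libraries, against 1813, 2024 and 1935 in the DMSO libraries. CCNA2, the cyclin A gene, had 326, 278 and 369 with AC220, against 3322, 3105 and 3159.6 with DMSO. MKI67, the Ki-67 gene used to mark cycling cells, had 1820.5, 1686 and 2042 with AC220, against 16668, 17049 and 17549.5 with DMSO. The second AC220 library was the lowest AC220 value for all 3 genes. CCNB2, PLK1 and KIF23, whose promoters are shown above, changed by -2.64 ± 0.0564, -2.87 ± 0.0663 and -2.99 ± 0.0723. CKAP2 moved least among the spindle genes, at -1.05 ± 0.061, and BUB3 least among the checkpoint genes, at -0.52 ± 0.043. Of the condensin and cohesin genes, 14 of the 17 members tested fell, 3 did not pass (median log2 fold change -0.95). The condensin genes NCAPH and NCAPG changed by -3.43 ± 0.0596 and -3.04 ± 0.0849, whereas STAG1, a cohesin subunit gene, did not pass (-0.03 ± 0.0649, adjusted p = 0.662).

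Motif matches in the promoters of these lists are given as a description. For the E2F family, TTTCCCGC or TTTGGCGC was searched on both strands in RefSeq promoters of 300 bases, from 250 before to 50 after the gene start. A match stood in 9 of 22 promoters of licensing genes (40.9%), in 8 of 25 promoters of fork genes (32%) and in 0 of 20 promoters of the mitotic kinase list, beside 401 of 10910 promoters (3.7%) of all genes tested. The CHR, TTTGAA or its reverse, stood in 17 of 21 promoters of the kinesin and spindle list (81%), in 11 of 20 promoters of the mitotic kinase list (55%) and in 1 of 22 promoters of licensing genes, beside 1104 of 10910 promoters (10.1%) of all genes tested. CCAAT on either strand stood in 16 of 21 promoters of the kinesin list and in 36.5% of all genes tested. No E2F match contains a CHR match, and a match is a description of the letters, not evidence of binding. Among genes lower by at least 4-fold, 40 of 410 promoters held an E2F site and 94 of 410 promoters a CHR, and among genes higher by at least 4-fold, 2 of 106 promoters and 18 of 106 promoters.

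**Figure D3:**
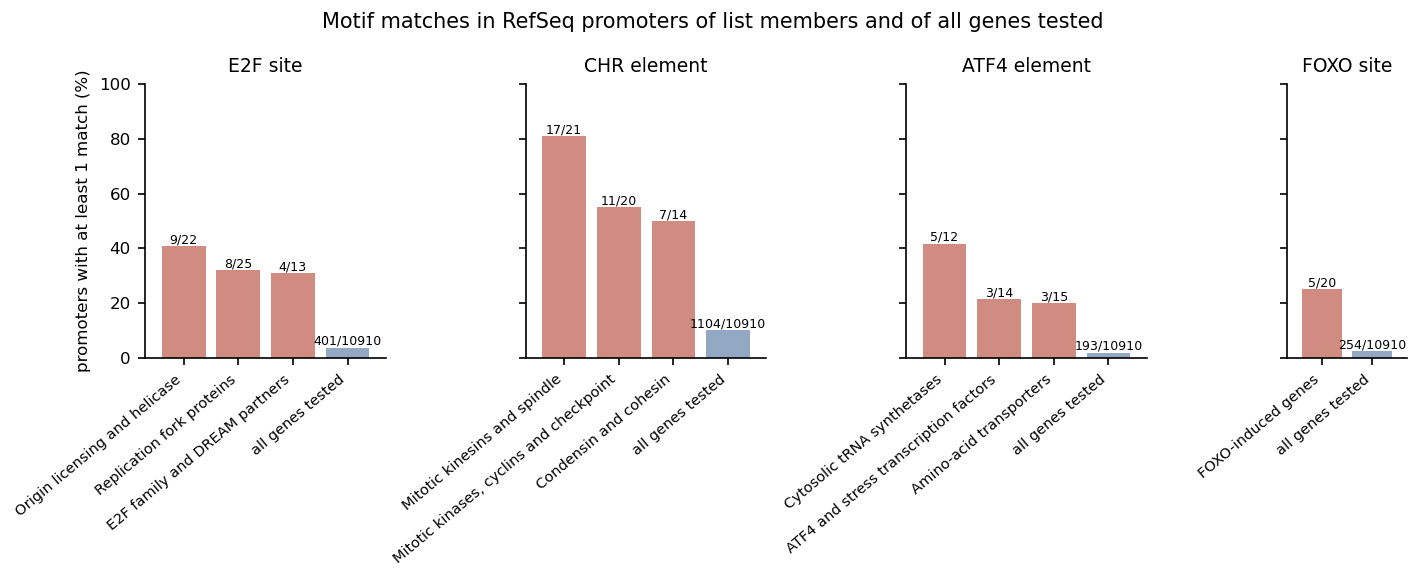
Share of RefSeq promoters with at least 1 motif match (vertical axis, percent), for list members (red) and for all genes tested (blue), in 4 panels by motif; numbers above the bars are promoters with a match over promoters available. The E2F site is at 40.9% in licensing genes and the CHR at 81% in kinesin and spindle genes, against 3.7% and 10.1% of all genes tested.

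Chromatin assembly genes fell, while histone transcripts went both ways. Of the histone chaperones and chromatin assembly genes, 23 of the 23 members tested fell (median log2 fold change -1.50). ASF1B, a histone chaperone gene of dividing cells, had 138, 109 and 139 normalised reads in the AC220 libraries, against 2038, 2066 and 2145 in the DMSO libraries. UHRF1, which copies DNA methylation at forks, had 450.1, 469.5 and 456 with AC220, against 2734, 2775 and 2688 with DMSO. Both were lower in every AC220 library than in any DMSO library (-4.01 ± 0.0766 and -2.57 ± 0.055). Of 32 listed histone genes, 15 were tested. Most replication-dependent histone transcripts end without a poly(A) tail, and the libraries were made from poly(A) RNA. Of the histone genes, 7 of the 15 members tested rose, 3 fell, 5 did not pass (median log2 fold change 0.77). HIST2H2BE had 562, 476 and 535 with AC220, against 128, 137 and 125 with DMSO. HIST1H2BK had 1386, 1308 and 1246 with AC220, against 351, 423 and 384 with DMSO. Reads of near-identical histone genes may be assigned to a sister gene, so these values are uncertain.

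MYC, a transcription factor gene of cell growth, had 5894, 5652 and 5500.4 normalised reads in the AC220 libraries, against 14591, 15249 and 15647 in the DMSO libraries (-1.42 ± 0.0419, adjusted p = 3.58e-19). Its network as a list had no common direction (6 of the 12 members tested rose, 4 fell, 2 did not pass): MYCL, a paralog, had 359.9, 386 and 317 with AC220, against 93.3, 82.3 and 73.3 with DMSO (2.08 ± 0.0986), MLXIP, a glucose-sensing partner of MLX, changed by 0.85 ± 0.0469 and MLXIPL, its relative, by -2.43 ± 0.138. Of the ribosome biogenesis and polymerase I genes, 28 of the 32 members tested fell, 4 rose (median log2 fold change -0.76). NOP56, a core protein of box C/D small nucleolar ribonucleoproteins, had 3582, 3868 and 3612 with AC220, against 8665, 8149 and 8729 with DMSO. NOLC1, a nucleolar chaperone gene, had 3280.1, 3666 and 3449.9 with AC220, against 8167, 7767 and 8329 with DMSO. GAR1, of box H/ACA particles, changed by -1.34 ± 0.0907. UBTF, an activator of polymerase I, was higher by a small amount (0.11 ± 0.0413, adjusted p = 0.0209), a call lost without the first AC220, the second AC220 or the first DMSO library (limma, adjusted p = 0.0625 to 0.0998). The E-box CACGTG that MYC binds stood in 7 of 26 promoters of this list (26.9%), beside 10.2% of all genes tested.

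Ribosomal protein genes went the other way from the genes that assemble ribosomes. Of 39 listed genes, 38 were tested, and RPS18 was below the minimum. 38 of the 38 members tested rose (median log2 fold change 0.28), and the range was narrow, from 0.11 ± 0.0387 for RPS7 to 0.48 ± 0.0434 for RPS9. RPS9 had 33978, 32948 and 30838 with AC220, against 22708, 23748 and 23397 with DMSO. RPL30 had 51479, 54564 and 52808 with AC220, against 37023, 39733 and 41496 with DMSO. The call for RPS7, the smallest in the list, was lost without the second AC220, the third AC220 or the first DMSO library (limma, adjusted p = 0.0507 to 0.0909). Reads of ribosomal protein genes are hard to tell from those of their many processed pseudogenes. Proteasome subunits fell by small amounts: 28 of the 30 members tested fell, 1 rose, 1 did not pass (median log2 fold change -0.49), with PSMD12 at -1.21 ± 0.0592.

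Most genes that bring in or make amino acids fell. Of the amino-acid transporters, 12 of the 17 members tested fell, 3 rose, 2 did not pass (median log2 fold change -1.09). SLC7A5, the large neutral amino-acid carrier gene LAT1, had 1626, 1432 and 1525 normalised reads in the AC220 libraries, against 16235, 18814 and 17166 in the DMSO libraries, an 11.4-fold decrease, and SLC3A2, its heavy chain, had 1894, 1922 and 1939 with AC220, against 5744, 5927 and 6135 with DMSO. SLC38A5, a glutamine carrier gene, changed by -3.93 ± 0.104, and SLC38A9, a lysosomal arginine sensor gene, did not pass (0.06 ± 0.0707, adjusted p = 0.452). In the serine, glycine and folate cycle, 14 of the 18 members tested fell, 2 rose, 2 did not pass (median log2 fold change -1.12). PHGDH, the first enzyme gene of serine synthesis, had 90.2, 94.5 and 149 with AC220, against 2724, 2847 and 3072 with DMSO. PSAT1, the next in that pathway, had 404, 391 and 548 with AC220, against 6654, 6858 and 6713 with DMSO. FPGS, which traps folates in cells, did not pass.

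ATF4 is a transcription factor of the amino-acid response, and most genes listed with it fell. Of the ATF4 and stress factor list, 14 of the 15 members tested fell, 1 rose (median log2 fold change -1.36). TRIB3, a pseudokinase gene that ATF4 induces, had 132, 76.6 and 135 with AC220, against 2937, 2875 and 2938 with DMSO. CHAC1, a glutathione-degrading enzyme gene, had 30.7, 31.8 and 31.0 with AC220, against 205, 194 and 192 with DMSO. ASNS had 847, 865 and 854 with AC220, against 2643, 2681 and 2763 with DMSO. PPP1R15A, which codes for GADD34, moved least (-0.17 ± 0.0685, adjusted p = 0.0254), and its call was lost in 6 of the alternatives, among them those without the first AC220, the second AC220, the first DMSO or the third DMSO library (limma, adjusted p = 0.056 to 0.153 over the 6). Of the cytosolic tRNA synthetases, 16 of the 19 members tested fell, 2 rose, 1 did not pass (median log2 fold change -0.74). AARS, for alanine, had 2057, 2173 and 2447 with AC220, against 10314, 10138 and 11012 with DMSO. GARS, for glycine, changed by -1.72 ± 0.0475, and SARS, for serine, did not pass (0.03 ± 0.0419, adjusted p = 0.474). The ATF4 element TGATGNAA stood in 5 of 12 promoters of the synthetase genes (41.7%), in 3 of 14 promoters of the stress factor list and in 3 of 15 promoters of the transporters, beside 193 of 10910 promoters (1.8%) of all genes tested.

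Nucleotide and polyamine synthesis genes moved both ways, with more decreases. Of the purine and pyrimidine genes, 14 of the 18 members tested fell, 3 rose, 1 did not pass (median log2 fold change -0.79). PAICS, a purine enzyme gene, had 3684, 3414 and 3523 with AC220, against 10649, 10385 and 10892 with DMSO. IMPDH2, of guanine nucleotide synthesis, had 12289.8 ± 106 with AC220, against 12579.6 ± 454 with DMSO (SD) and did not pass. Of the polyamine genes, 6 of the 10 members tested fell, 3 rose, 1 did not pass (median log2 fold change -0.30), with the spermidine synthase gene SRM at -1.12 ± 0.0615.

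Lipid synthesis genes were among the most lowered. Cholesterol is made through the mevalonate pathway, and its genes are driven by SREBP factors when sterols run low. Of the cholesterol synthesis and uptake genes, 23 of the 24 members tested fell, 1 rose (median log2 fold change -1.89). DHCR7, the last enzyme gene of one branch to cholesterol, had 37.4, 26.9 and 78.8 normalised reads in the AC220 libraries, against 3905, 3567 and 4060.3 in the DMSO libraries, an 87.2-fold decrease (-6.45 ± 0.211, adjusted p = 2.54e-18), with the third AC220 library the highest of its group. HMGCS1, which codes for HMG-CoA synthase, had 943, 928 and 1083 with AC220, against 10098, 8422 and 9981 with DMSO. PMVK moved least (-0.17 ± 0.0649, adjusted p = 0.0213), and its call was lost without the second AC220 or the third DMSO library (limma, adjusted p = 0.0809 and 0.088).

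Genes that export cholesterol under LXR did not follow: 4 of the 10 members tested rose, 1 fell, 5 did not pass (median log2 fold change 0.30). ABCA1, the cholesterol exporter gene, had 3466, 3276 and 2458 with AC220, against 1741, 1708 and 1723 with DMSO, with the third AC220 library the lowest of its group. LPCAT3, a phospholipid enzyme gene, was the member that fell (-0.14 ± 0.0509, adjusted p = 0.0191), and its call was lost without the third AC220 or the third DMSO library (limma, adjusted p = 0.0733 and 0.0979). Of the fatty acid genes, 12 of the 14 members tested fell, 1 rose, 1 did not pass (median log2 fold change -1.45). SCD, the stearoyl desaturase gene, had 2520.1, 2463 and 2986 with AC220, against 37642, 34480.4 and 39224 with DMSO. FADS2, the first desaturase gene of polyunsaturated fatty acids, had 768, 827 and 949.7 with AC220, against 14609.5, 13778 and 15828 with DMSO. FASN, fatty acid synthase, had 3294, 3092 and 2813 with AC220, against 13844, 13071 and 13006 with DMSO. The exact sterol element TCACCCCAC stood in 1 of 19 promoters of the cholesterol list and 45 of 10910 promoters of all genes tested.

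Most glycolysis genes fell, and the TCA cycle had a median near 0. Of the glycolysis and glucose entry genes, 20 of the 24 members tested fell, 3 rose, 1 did not pass (median log2 fold change -1.03). LDHA, which makes lactate, had 7755, 7594 and 7916 with AC220, against 33219, 31456 and 34650.5 with DMSO. PGK1, a payoff-phase enzyme gene, had 10767, 10242 and 10851 with AC220, against 34768, 35218 and 37859 with DMSO. SLC2A3, a glucose carrier gene, changed by -2.20 ± 0.0737. PFKM did not pass (0.03 ± 0.109, adjusted p = 0.822). Of the TCA cycle and pyruvate oxidation genes, 16 of the 27 members tested fell, 5 rose, 6 did not pass (median log2 fold change -0.14). PDK2 and PDK3, kinases that switch off pyruvate oxidation, moved in opposite directions, 0.94 ± 0.0733 and -0.97 ± 0.082. Of the nuclear-encoded respiratory chain genes, 17 of the 28 members tested fell, 5 rose, 6 did not pass (median log2 fold change -0.16), with cytochrome c (CYCS) at 1313, 1302 and 1412 with AC220, against 4701, 3688 and 3948 with DMSO.

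Most lysosomal genes rose. 21 of the 29 members tested rose, 3 fell, 5 did not pass (median log2 fold change 0.51). PSAP, the gene of the precursor of the saposins, had 16203, 16047 and 15509 normalised reads in the AC220 libraries, against 7156, 7139 and 7626 in the DMSO libraries. GAA, the lysosomal glucosidase gene, had 5464, 5153 and 4800.3 with AC220, against 2023, 2324 and 2002 with DMSO. CTSS, a protease gene of antigen processing, had 4010.4, 4011 and 3844 with AC220, against 1668, 1936 and 1748 with DMSO. CTSC did not pass (-0.07 ± 0.037, adjusted p = 0.0936). Of the core autophagy genes, 13 of the 29 members tested rose, 7 fell, 9 did not pass (median log2 fold change 0.12). Among all genes tested, 37.7% were higher and 37.3% lower. TFEB, a transcription factor gene of lysosomes, changed by 1.22 ± 0.0769 and GABARAP, a vesicle tag gene, by 1.35 ± 0.0434, while OPTN, an autophagy receptor gene, changed by -1.53 ± 0.102.

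**Figure D4:**
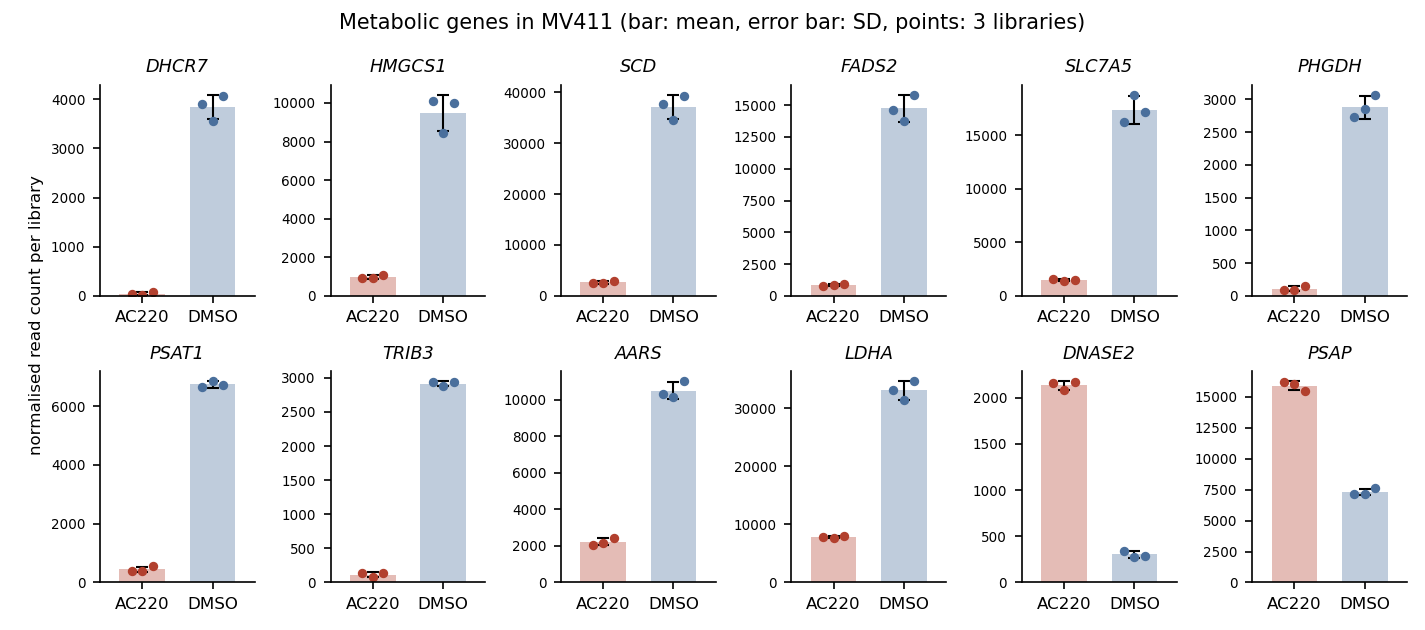
Normalised read counts (vertical axes, each from 0) of 12 metabolic and lysosomal genes in 3 AC220 libraries (left, red) and 3 DMSO libraries (right, blue); bars are means, error bars SD, points single libraries. The 10 lipid, amino-acid, tRNA synthetase and glycolysis genes are lower with AC220, as DHCR7 at 87.2-fold, and the lysosomal genes DNASE2 and PSAP are higher, with no overlap in any panel. Of all genes tested, 77.8% had no overlap between the groups.

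Survival and death genes had no common direction. Of 5 survival genes of the BCL2 family, 2 of the 5 members tested fell, 1 rose, 2 did not pass. MCL1 had 5692, 5483 and 5969 with AC220, against 9733, 9109.6 and 9011 with DMSO (-0.70 ± 0.0453). BCL2A1, named after its values were seen, fell to 0, 0.995 and 2.82 with AC220, against 40.0, 31.1 and 38.1 with DMSO. BCL2 had 4113 ± 202 with AC220, against 3858 ± 56.5 with DMSO (SD) and did not pass (0.09 ± 0.0489, adjusted p = 0.0953). Of the BH3-only and effector genes, 2 of the 11 members tested fell, 2 rose, 7 did not pass. BMF codes for a BH3-only death protein released from the cytoskeleton. It had 9701, 9818 and 9389 with AC220, against 3231, 3920.5 and 3327 with DMSO (1.47 ± 0.0544). BIK, another BH3-only gene, had 252, 265 and 244 with AC220, against 94.2, 82.3 and 99.7 with DMSO. PMAIP1, which codes for NOXA, and BNIP3, a mitophagy gene induced by low oxygen, changed by -1.54 ± 0.123 and -1.72 ± 0.097. Of the p53-induced genes, 11 of the 22 members tested fell, 4 rose, 7 did not pass (median log2 fold change -0.13).

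Most antigen presentation genes tested rose. MHC class II molecules show peptides to helper T cells and are switched on by the coactivator CIITA. Of 18 listed class II genes, 14 were tested, and HLA-DMA, HLA-DMB, HLA-DOA and HLA-DOB were below the minimum. 13 of the 14 members tested rose, 1 fell (median log2 fold change 1.47). CIITA had 1551, 1338 and 1246 normalised reads in the AC220 libraries, against 346, 347 and 307 in the DMSO libraries. HLA-DRA, the alpha chain gene of HLA-DR, had 765, 738 and 667 with AC220, against 154, 208 and 186 with DMSO. CD74, the chaperone gene of class II, had 34162, 33672 and 31668 with AC220, against 11294, 12668 and 12537 with DMSO. Every AC220 value lay above every DMSO value in these 3 genes, and 77.8% of all genes tested had the groups wholly apart. Members of the HLA family are close in sequence, and their reads may be shared between paralogs. Of 15 listed class I genes, 11 were tested, and TAP1, TAP2, TAPBP and PSMB9 were below the minimum. 9 of the 11 members tested rose, 2 did not pass (median log2 fold change 0.49). The ribosomal protein gene RPS18 and the tRNA synthetase gene VARS were below the minimum too. A class I or class II gene below the minimum is therefore not read as unexpressed, and the cause was not tested. HLA-B had 13688, 12340.5 and 12039 with AC220, against 8116, 8743 and 8074 with DMSO and B2M, the light chain, 38872, 38902 and 38855 with AC220, against 27524, 28327 and 27093 with DMSO.

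Myeloid surface genes moved both ways, with more increases: 26 of the 39 members tested rose, 12 fell, 1 did not pass (median log2 fold change 0.66). CX3CR1, the fractalkine receptor gene of patrolling monocytes, had 2387, 2478 and 2278 normalised reads in the AC220 libraries, against 718, 719.7 and 827 in the DMSO libraries. CD68, a lysosomal glycoprotein gene of macrophages, had 11587, 11506 and 10813 with AC220, against 3645, 4019.8 and 4096 with DMSO. LILRB2, an inhibitory receptor gene, had 513, 526 and 450.5 with AC220, against 125, 159.6 and 117 with DMSO. TREM1, a receptor gene that amplifies inflammation, went the other way with 47.0, 42.8 and 47.9 with AC220, against 435, 320.2 and 468 with DMSO. CD14, the lipopolysaccharide co-receptor gene of mature monocytes, was close to absent in both groups, with 1.92, 0 and 0 with AC220, against 7.61, 9.03 and 9.77 with DMSO. Among integrins and adhesion genes, 10 of the 19 members tested rose, 7 fell, 2 did not pass. ITGB7 had 8609, 8766 and 7949 with AC220, against 2320.1, 2596 and 2375 with DMSO, while ITGB2, the shared chain of leukocyte integrins, had 4103, 3786 and 3491 with AC220, against 10142, 10597 and 10569.9 with DMSO. ITGAM, its CD11b partner, changed by -0.43 ± 0.0824. CXCR4, the chemokine receptor gene that holds cells in marrow, had 6749, 7269 and 6788 with AC220, against 2436, 2480.2 and 2593 with DMSO.

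Granule and oxidase genes showed no common direction: 10 of the 20 members tested rose, 6 fell, 4 did not pass (median log2 fold change 0.13). CYBB, the membrane subunit gene of the phagocyte oxidase, had 210.2, 134 and 114 with AC220, against 396, 469.7 and 488 with DMSO, with the first AC220 library above the other two. LYZ, the lysozyme gene, had 53388, 55297 and 59930.5 with AC220, against 31405, 29057 and 29629 with DMSO. S100A9, a calprotectin gene, had 62.4, 92.5 and 48.8 with AC220, against 133, 145 and 122 with DMSO. The lineage transcription factor list also split: 11 of the 23 members tested rose, 9 fell, 3 did not pass (median log2 fold change -0.03). Over all genes tested, 37.7% were higher and 37.3% lower. SPI1, the PU.1 gene, and CEBPA, both master factors of myeloid cells, did not pass (-0.04 ± 0.0631, adjusted p = 0.602 and -0.03 ± 0.0428, adjusted p = 0.489). IRF5 had 4194, 4109.5 and 3847 with AC220, against 2405, 2642 and 2556 with DMSO. CEBPD changed by -0.82 ± 0.132.

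The genes of the KMT2A fusion programme had no common direction. Of 28 listed HOX cofactor and MLL programme genes, 21 were tested. HOXA3, HOXA5, HOXA6, HOXA7, HOXA11, HOXB2 and CD34 were below the minimum. 12 of the 21 members tested rose, 5 fell, 4 did not pass (median log2 fold change 0.14). HOXA9 had 1962 ± 112 with AC220, against 2014 ± 114 with DMSO (SD) and did not pass (-0.04 ± 0.0596, adjusted p = 0.573), and MYB did not pass (0.01 ± 0.0388, adjusted p = 0.831). MEIS1, the HOX cofactor gene, had 2853, 2895 and 2964 with AC220, against 2312, 2225 and 2255 with DMSO, RUNX2 changed by 0.62 ± 0.0471 and JMJD1C, a demethylase-family gene, by 0.69 ± 0.0469. GATA2, a stem cell transcription factor gene, fell further than the other members named, to 31.7, 16.9 and 34.7 with AC220, against 471, 421 and 531 with DMSO (-4.10 ± 0.213, adjusted p = 1.85e-14).

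Secreted factors spanned a wider range of fold changes than any other list. 12 of the 22 members tested fell, 9 rose, 1 did not pass (median log2 fold change -0.70). CCL2, the monocyte chemokine gene, had 1.92, 0.995 and 1.88 normalised reads in the AC220 libraries, against 156, 204 and 186 in the DMSO libraries. SPP1, the osteopontin gene, had 3.84, 3.98 and 1.88 with AC220, against 392, 225 and 377 with DMSO. IL1B, the interleukin 1 beta gene, had 41.3, 27.9 and 26.3 with AC220, against 266, 299 and 288 with DMSO. IGF1, a growth factor gene, went the other way with 6939, 7080.0 and 6577 with AC220, against 562, 527 and 490.4 with DMSO. CCL5 had 495, 537 and 381 with AC220, against 2490.4, 1914 and 2549 with DMSO, with no overlap. Interferon-stimulated genes were divided: 14 of the 26 members tested rose, 9 fell, 3 did not pass (median log2 fold change 0.33). The shares among all genes tested were 37.7% higher and 37.3% lower. RSAD2, the viperin gene, had 345, 416 and 379 with AC220, against 87.6, 73.3 and 58.6 with DMSO. STAT2 had 7569, 7751 and 7711 with AC220, against 3151, 3343 and 3034 with DMSO, whereas IFIT2 had 30.7, 27.9 and 33.8 with AC220, against 457, 294 and 394 with DMSO and IFIT3 24.0, 32.8 and 28.2 with AC220, against 231, 152 and 192 with DMSO.

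**Figure D5:**
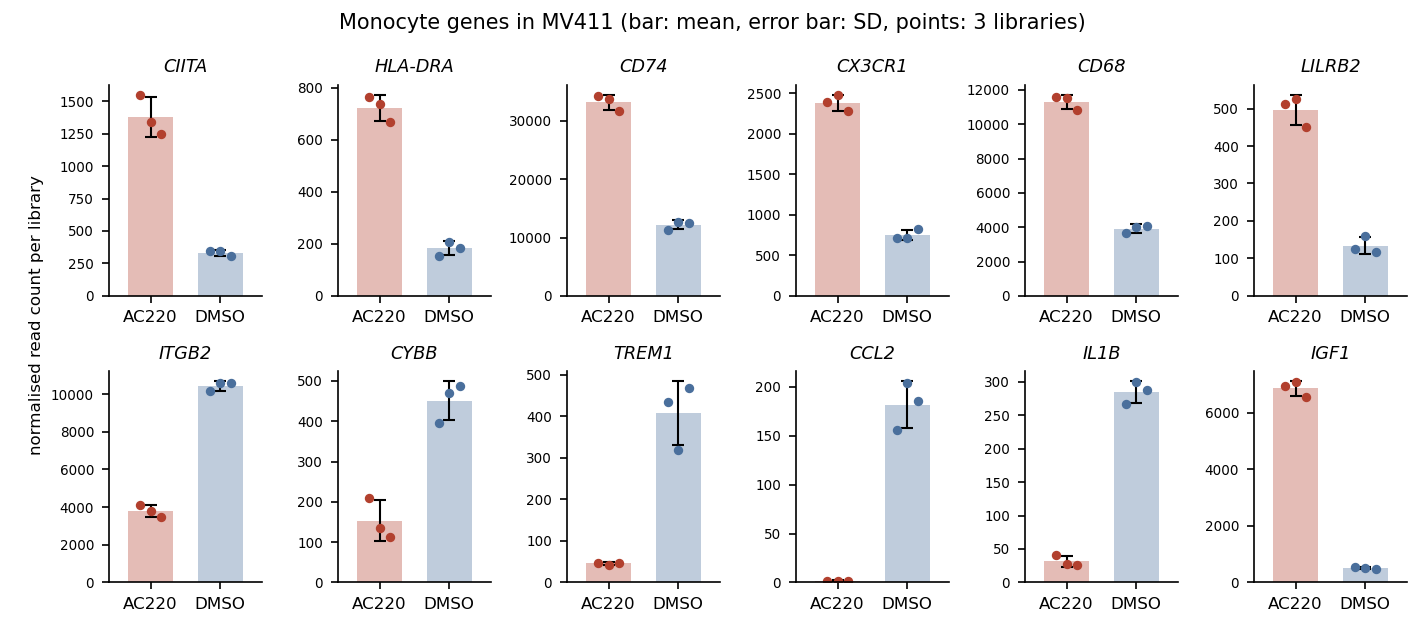
Normalised read counts (vertical axes, each from 0) of 12 monocyte, antigen presentation and cytokine genes in 3 AC220 libraries (left, red) and 3 DMSO libraries (right, blue); bars are means, error bars SD, points single libraries. CIITA, HLA-DRA, CD74, CX3CR1, CD68, LILRB2 and IGF1 are higher with AC220 and ITGB2, CYBB, TREM1, CCL2 and IL1B lower, with no overlap in any panel. Of all genes tested, 77.8% had no overlap between the groups.

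LGALS2, GRIP1, CD84 and DNASE2 were among the 15 largest increases with a group mean of at least 100. LGALS2, a galectin gene, had 265, 247 and 251 normalised reads in the AC220 libraries, against 14.3, 16.1 and 11.7 in the DMSO libraries, a 17.1-fold increase. GRIP1, a scaffold protein gene, had 5664, 5825 and 5531 with AC220, against 659, 747 and 718 with DMSO. CD84, an adhesion receptor gene of leukocytes, had 4626, 4618 and 4741 with AC220, against 573, 709.6 and 626 with DMSO. DNASE2, the lysosomal nuclease gene that digests engulfed DNA, had 2153, 2078 and 2164 with AC220, against 343, 276 and 288 with DMSO. GRIP1, CD84 and DNASE2 were read often in every AC220 library and rose by 8.01-fold, 7.34-fold and 7.06-fold. PDE4B, a cyclic AMP phosphodiesterase gene, had 535, 593 and 559 with AC220, against 64.7, 74.3 and 62.5 with DMSO. GFRA2, a neurotrophic factor co-receptor gene, had 234, 238 and 223 with AC220, against 20.9, 19.1 and 13.7 with DMSO. SCARA5, a ferritin receptor gene, had 237, 167 and 195 with AC220, against 2.85, 2.01 and 2.93 with DMSO, so its fold rests on few DMSO reads.

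Several of the largest decreases were in genes with few AC220 reads, where ratios are imprecise. KLHDC7B had no AC220 read and 372 DMSO reads, at least 124-fold lower by a floor of 3 reads over the group, which covers counting error only. OCSTAMP, an osteoclast fusion gene, had 0, 0 and 0.938 with AC220, against 127, 98.4 and 132 with DMSO. SLCO4C1, an anion carrier gene, had 2.88, 0 and 11.3 with AC220, against 413, 331 and 406 with DMSO, with reads in 2 of 3 AC220 libraries. JPH2, a junction protein gene, had 3.84, 3.98 and 5.63 with AC220, against 229, 373 and 296 with DMSO. SERPINE2, a protease inhibitor gene, had 3.84, 2.98 and 5.63 with AC220, against 126, 152 and 167 with DMSO. PERP, GPR56 and SGMS2 had no AC220 read against 30, 31 and 40 DMSO reads, and KCND3 and COL25A1 had 30 and 40 AC220 reads and no DMSO read.

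Against MI-503, a drug with another target, dose and time, 9848 genes (68.3%) passed, 4873 higher (33.8%) and 4975 lower (34.5%), of which 793 (5.5%) and 1100 (7.63%) by at least 2-fold. The AC220 and MI-503 groups share no library, and both are set here against each other without DMSO. Mitotic genes differed between the drugs: 26 of 27 mitotic kinases, cyclins and checkpoint genes and all 23 kinesin and spindle genes were lower with AC220 than with MI-503, with median log2 fold changes of AC220 over MI-503 of -2.78 and -2.73. MKI67 had 1820.5, 1686 and 2042 with AC220, against 16004, 17315 and 16799 with MI-503 (-3.18 ± 0.0522, adjusted p = 1.71e-23). MHC class II, in contrast, had a median difference of 0.19 and 6 of 14 members higher with AC220 and 2 lower, and HLA-DRB1 did not pass (0.02 ± 0.0584, adjusted p = 0.772).

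Genes of the KMT2A programme differed between the drugs in the other direction: 16 of 21 were higher with AC220 than with MI-503 and 4 lower. MEIS1 had 2853, 2895 and 2964 with AC220, against 461, 449 and 456 with MI-503 (2.67 ± 0.0575, adjusted p = 1.89e-21), and HOXA9 had 2019, 1832 and 2034 with AC220, against 535, 584 and 522 with MI-503 (1.84 ± 0.0596, adjusted p = 3.05e-18). Among the genes named for their size of difference, CSMD3, a large membrane protein gene, had 1105, 1099 and 1071 with AC220, against 53.1, 50.7 and 58.4 with MI-503 (4.31 ± 0.129, adjusted p = 6.88e-19), and UGCG, the glucosylceramide synthase gene, had 3680.3, 3575 and 3713 with AC220, against 359, 437 and 409.9 with MI-503. PRLR, the prolactin receptor gene, was lower with AC220, at 5.76, 3.98 and 4.69 with AC220, against 338, 342 and 288 with MI-503 (-5.81 ± 0.176, adjusted p = 8.08e-19), and CYBB had 210.2, 134 and 114 with AC220, against 2554, 2778 and 2524 with MI-503 (-4.14 ± 0.129, adjusted p = 1.48e-18). The ERK outputs DUSP6 and ETV5 were lower with AC220 than with MI-503, -2.89 ± 0.137, adjusted p = 5.33e-15 and -3.00 ± 0.0795, adjusted p = 6.37e-20, and EGR1 did not pass (-0.03 ± 0.2, adjusted p = 0.918). Of 18 ERK-induced transcription factor genes tested, 8 were lower with AC220 than with MI-503 and 2 higher (median -0.12). Of 10 ERK phosphatases and brakes tested, 6 were lower and 1 higher (median -0.94). Among all genes tested, 34.5% were lower and 33.8% higher in this contrast.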

How the data were processed

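Poly(A) RNA of MV411 cells was sequenced in paired 50 bp reads, per the labels, with spike-in RNA added to a fixed number of cells. The authors deposited 1 table of normalised values per gene, called signal here, which per the submitters' processing notes came from DESeq version 2 on hg38. The aligner, the counting program, strand use and annotation are not given in the sources used here. In every library all values were whole reads divided by 1 factor (tolerance 0.001), and that factor equalled the median-of-ratios factor of the genes.

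From these values limma 3.58.1 (R 4.3.3) was fitted with a variance trend on log2(value + 1) over all 12 MV411 libraries, keeping genes that reached 10 in 3 or more of them. Tests were two-sided and adjusted after Benjamini and Hochberg over 14421 genes, with a threshold of 0.05. Fold changes on this scale understate changes of low genes. P-values set the difference between groups against the spread among replicate libraries, estimated over the 4 MV411 groups. That spread may in part be technical. Replicates of a group differed by more than counting error (chi-square per degree of freedom 3.05 to 3.68 with AC220 and 3.24 to 3.80 with DMSO). edgeR 4.0.16 and DESeq2 1.42.0 on the recovered reads, other factors, filters and pseudocounts, a replicate block and leaving out each library were alternatives. The fit was tested on simulated data.

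Members and gene lists were chosen with earlier results of these data known. Genes named were 28 fixed ones, the 5 most changed called genes per list whose mean reached 100 in a group, the member with the smallest change, the 15 largest changes per direction against DMSO and the 6 largest against MI-503, without overlap between groups. Further genes are named as counts or descriptions, chosen after their values were seen, as were the promoters printed. Promoters, gene positions and symbols came from RefSeq (GRCh38.p14). 14050 of the tested genes matched and 371 did not, and 10910 had a promoter sequence. Some genes are not reported here.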

Additional observations from a re-analysis of the deposited data

How the results depend on the processing

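For AC220 against DMSO, 10806 genes passed as reported, and between 10402 (DESeq2) and 11307 (no filter, 20076 genes) passed under alternatives that kept all libraries and the 14421 genes or more. edgeR called 10861, TMM factors gave 10807 and equal library totals 10821, and a minimum value of 50 gave 9775 of 12350 genes. Leaving out 1 library at a time gave 10315 to 10470. For AC220 against MI-503, 9848 passed as reported, DESeq2 called 9452, edgeR 9922, and leaving out 1 library gave 9241 to 9346. In none of these fits did a gene called in both settings change direction. Another scaling moved the median of all genes by at most 0.0228 log2 units.

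With the replicate number as a block, 10844 and 9842 genes passed. The numbers are not known to pair cultures, and deviations of same-numbered AC220 and DMSO libraries correlated at -0.013, -0.018 and -0.005. Differently numbered AC220 and DMSO libraries correlated at -0.065 to 0.074.

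Of 340 genes named by the rule, 11 changed their side of the threshold under at least 1 alternative and 0 changed direction while called. Besides those given with the report, TREM2 passed without the third DMSO library (limma, adjusted p = 0.034), CDK6 and UGCG with only the 6 libraries compared, and BCL2 with equal totals. Some list counts of 3 or fewer genes moved, as the histone genes called lower (3 as reported, 1 with a minimum value of 50). With that minimum, 3 of the 340 were not in the fit. Depth limits genes under about 10 normalised reads, such as CD14 with AC220.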

Other observations

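Small nucleolar RNA genes, most of which lie in introns of host genes and guide the modification of ribosomal RNA, were looked at after their values were seen. Of 138 tested, 82 were lower with AC220 and 2 higher, with a median log2 fold change of -0.78. Shares over all genes tested were 37.3% lower and 37.7% higher. SNORD86 changed by -1.98 ± 0.0786, adjusted p = 1.08e-16 and SNORD47 by -1.71 ± 0.2, adjusted p = 4.52e-08. The host genes GAS5 and SNHG5 were higher (0.59 ± 0.04 and 0.77 ± 0.0449) and SNHG3 lower (-0.49 ± 0.061). Reads of a host transcript and of the RNA inside it cannot be told apart here. The libraries were made from poly(A) RNA, so these values are not taken as levels of the mature small RNAs.

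Of 802 long non-coding RNA genes tested, 384 were higher and 160 lower (median 0.32), beside 37.7% higher and 37.3% lower among all genes tested. Among those lower, TYMSOS (-3.27 ± 0.106), HMMR-AS1 (-2.61 ± 0.103), PCNA-AS1 (-1.84 ± 0.0496) and TMPO-AS1 (-2.53 ± 0.0945), chosen after their values were seen, are named as antisense or opposite-strand partners of the cell-cycle genes TYMS (-3.13 ± 0.0616), HMMR (-2.80 ± 0.0958), PCNA (-1.90 ± 0.0431) and TMPO (-2.57 ± 0.0477). The use of strand in counting is not given, so reads of such pairs cannot be told apart.

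Of the circadian clock genes, not described above, 7 of the 14 members tested rose, 3 fell, 4 did not pass (median log2 fold change 0.29). Among all genes tested, 37.7% were higher and 37.3% lower. DBP, a clock output gene, had 653, 555 and 583 with AC220, against 226, 286 and 244 with DMSO, and PER2 had 630.5, 661 and 657 with AC220, against 1218, 1233 and 1184 with DMSO, each without overlap.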
